A study of Mus musculus with 2 samples.

Results

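The antioxidant and NRF2 target genes comprised 10 named genes. They were the transcription factor gene Nfe2l2, the NRF2 target genes Nqo1, Gclc, Gclm, Txnrd1 and Srxn1, and the enzyme genes Cat, Sod1, Sod2 and Gpx1. All 10 were found among the 38320 gene entries of each library, and 9 of them reached a mean of 1 FPKM (fragments mapped to a gene, scaled for transcript length and library depth), as did 12861 genes in all. Nqo1 did not. Membership was set by name, not by any measured value.

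RNA-seq was performed on plate-adherent liver cells from adult male mice of strain C57/Bl6 given the hepatotoxin carbon tetrachloride (CCl4) for 5 weeks. The control library came from Foxf1 fl/fl mice, which carry loxP-flanked Foxf1 alleles and no Cre (written Foxf1fl/fl here). The other came from αSMACreER;Foxf1 fl/fl mice, labelled knockout and written αSMACreER;Foxf1-/- here, in which a tamoxifen-inducible Cre under the smooth muscle actin promoter deletes the Foxf1 DNA-binding exon in cells that use this promoter. Both genotypes shared the floxed alleles and the CCl4, and the study's treatment scheme gave tamoxifen beside it. Samples were pooled into 1 library per genotype, so differences below could not be set against a replicate spread, and p-values are not given. The intervals below are approximate 95% intervals for counting error only. Foxf1 itself was not analysed here, so its deletion was not checked in the library labelled knockout.

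The libraries held about 9681220 (Foxf1fl/fl) and 11376646 (αSMACreER;Foxf1-/-) mapped reads, a rough figure inferred from the steps between low FPKM. The labelled cell type, stromal, did not match the leading markers. The 11 Kupffer cell and macrophage markers summed to 11993 FPKM in Foxf1fl/fl and 10060 FPKM in αSMACreER;Foxf1-/-, against 94.1 and 128.7 FPKM for 10 stellate cell and myofibroblast markers. No marker of either list was at 0, and Lrat, a stellate cell marker, stood at 0.0778 and 0.111 FPKM. The 10 hepatocyte markers summed to 4580 and 1655 FPKM. On the scale described below, all 10 fell by at least 1.5-fold, as did 13.2% of all genes. Of the 6 neutrophil markers, 4 fell by at least 1.5-fold, Ly6g was listed at 9.82 and 0 FPKM, and the sum was 2033 and 858 FPKM. In such mixed cells, fewer cells of a type and less RNA per cell cannot be told apart. The values below therefore describe the adherent liver cells as a whole.

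NRF2, the product of Nfe2l2, is held in the cytoplasm and marked for destruction by KEAP1 until oxidants or electrophiles modify KEAP1. NRF2 then pairs with small MAF proteins at antioxidant response elements and raises transcription of genes for glutathione synthesis, thioredoxin reduction and detoxification. Superoxide dismutases turn superoxide into hydrogen peroxide, which catalase and glutathione peroxidases remove. CCl4 is converted in hepatocytes by CYP2E1 into a radical that oxidises membrane lipids, and macrophages add superoxide through the NADPH oxidase.

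Promoter sequence was read from RefSeq for GRCm38.p6, from 250 bases before to 50 bases after each gene's start, and 9 of the 10 members matched. Gclc had no entry. Txnrd1 had 3 promoters, of which that nearest the deposited start was searched. Motifs were searched on both strands, namely the response element core as TGACNNNGC and TGAGNNNGC, and the AP-1 form TGAGTCA, which can lie inside the second core. The first core was present in 5 of the 9 promoters (Nfe2l2, Gclm, Txnrd1, Srxn1 and Sod1) and in 12.4% of all 32851 promoters of this length. The second was present in Srxn1 alone and in 17.6% of all promoters, and TGAGTCA likewise in Srxn1 alone and in 5.20% of all. A match is a description of letters and not a bound site. Sequence outside this window was not searched, so a promoter without a match may still have an element elsewhere. The 250 bases before the start are shown for 4 of these genes, because their matches lie close to the start and the genes gave the values compared below (5′ to 3′, capitals mark matches, and reverse-strand matches read as their complement). They lie on the plus strand at chr2:152105274-152105523 (Srxn1), chr3:122245307-122245556 (Gclm), chr10:82858956-82859205 (Txnrd1) and chr16:90220512-90220761 (Sod1).
Srxn1: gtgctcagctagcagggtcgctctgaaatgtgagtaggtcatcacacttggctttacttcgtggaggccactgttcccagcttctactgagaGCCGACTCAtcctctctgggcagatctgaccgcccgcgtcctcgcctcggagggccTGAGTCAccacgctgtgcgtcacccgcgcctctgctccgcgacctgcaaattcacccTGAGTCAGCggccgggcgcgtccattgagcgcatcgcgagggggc
Gclm: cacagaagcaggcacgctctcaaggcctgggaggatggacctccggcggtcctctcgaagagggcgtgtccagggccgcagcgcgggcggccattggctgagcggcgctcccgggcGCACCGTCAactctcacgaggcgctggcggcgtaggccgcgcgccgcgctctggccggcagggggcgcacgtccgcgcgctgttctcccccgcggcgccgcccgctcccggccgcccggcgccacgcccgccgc
Txnrd1: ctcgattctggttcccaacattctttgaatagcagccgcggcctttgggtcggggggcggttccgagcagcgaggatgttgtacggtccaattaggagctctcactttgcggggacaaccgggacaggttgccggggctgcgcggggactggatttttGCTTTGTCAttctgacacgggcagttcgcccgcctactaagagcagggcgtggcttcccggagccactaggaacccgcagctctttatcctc
Sod1: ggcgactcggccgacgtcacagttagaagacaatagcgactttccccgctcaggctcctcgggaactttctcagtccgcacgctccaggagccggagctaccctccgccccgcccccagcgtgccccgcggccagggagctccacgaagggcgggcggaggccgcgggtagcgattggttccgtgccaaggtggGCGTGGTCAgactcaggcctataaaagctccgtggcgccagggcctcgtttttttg
In Srxn1 the capitals mark 3 places, a reverse TGAGTCGGC from base -158, a TGAGTCA from base -102 and a TGAGTCAGC from base -45, the last holding both the second core and the AP-1 form. Srxn1 also held a reverse TGACCTAGC from base 28 after the start. The others held 1 reverse match each before the start, TGACGGTGC from base -134 in Gclm, TGACAAAGC from base -92 in Txnrd1 and TGACCACGC from base -56 in Sod1.

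To ask how these genes differed between the genotypes, the αSMACreER;Foxf1-/- values were divided by a scale factor of 1.02 (the median ratio over 12011 genes) and compared as log2(FPKM + 0.1). Levels below are FPKM as deposited, and differences are αSMACreER;Foxf1-/- minus Foxf1fl/fl on that log2 scale. Of the 10 genes, 1 fell by at least 1.5-fold (Sod1) and 0 rose. Among all 12861 genes, 13.2% fell and 12.9% rose by that much (26.1% in either direction), so the members' share of called genes was near or below the background. Under a scaling to equal FPKM sums the split over all genes was 1125 lower and 2815 higher, against 1697 and 1662 here. The log2 difference was below 0 for 8 of the 10 genes and above 0 for 2, against 49.6% and 50.4% of all genes. The median over the 10 was -0.21, against 0.0058 over all genes. By role, the 4 superoxide and peroxide enzymes lay between -0.61 and -0.33, Nfe2l2, Gclm, Txnrd1 and Srxn1 lay between -0.08 and 0.03, Gclc was at 0.28 and Nqo1 at -0.45.

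**Figure D1:**
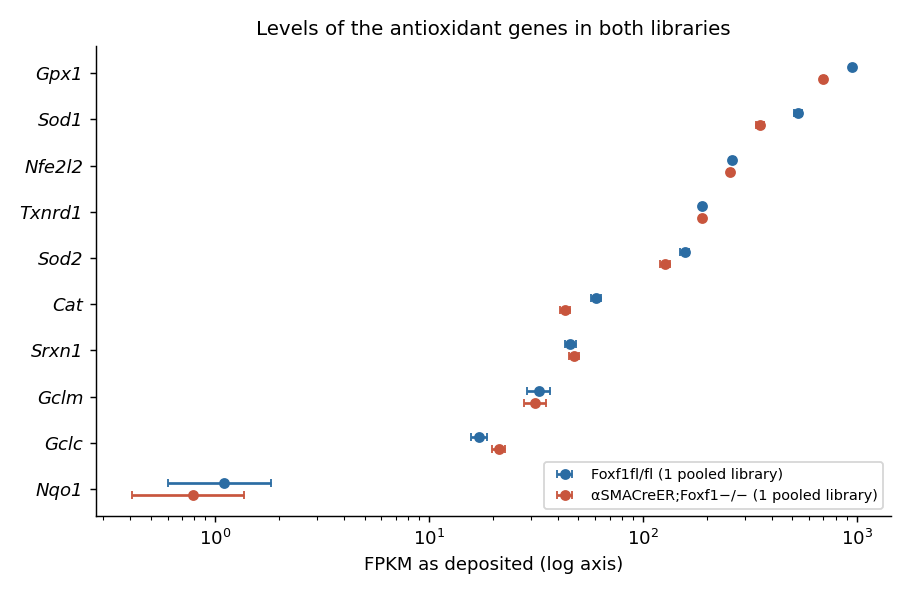
Levels of the 10 genes in FPKM as deposited (horizontal log axis), with 1 point per genotype and bars for approximate 95% counting intervals (bars of the αSMACreER;Foxf1-/- library computed from its reads). Gpx1, at 955 and 699 FPKM, is at the top and Nqo1, at 1.10 and 0.788 FPKM, at the bottom.

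The 10 genes spanned 872-fold in level in Foxf1fl/fl and 887-fold in αSMACreER;Foxf1-/-. Their FPKM summed to 2252 and 1770, which was 0.299% and 0.265% of all FPKM in the library. Gpx1 made up 42.4% and 39.5% of that sum, and Gpx1 and Sod1 together 66.0% and 59.5%. The order in Foxf1fl/fl was Gpx1, Sod1, Nfe2l2, Txnrd1, Sod2, Cat, Srxn1, Gclm, Gclc and Nqo1. In αSMACreER;Foxf1-/- it differed by the exchange of Cat and Srxn1. Neighbours differed beyond counting error at every place of the order in both libraries, with no replicate spread to set this against. The narrowest gap was that of Srxn1 over Cat in αSMACreER;Foxf1-/-, a log2 ratio of 0.14 (interval 0.030 to 0.25).

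Nfe2l2 (ENSMUSG00000015839, GRCm38 chr2:75675513-75704641, minus strand, 5 exons in the main transcript) stood at 262.5 FPKM in Foxf1fl/fl and 256.8 FPKM in αSMACreER;Foxf1-/-. This placed it at percentiles 96.7 and 97.0 of level among compared genes. The difference was -0.06 (interval -0.11 to -0.0061), from about 5781 and 6646 reads. NRF2 activity is set mainly by the stability of the protein, which RNA levels do not measure.

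Txnrd1 encodes the cytosolic selenoenzyme that reduces thioredoxin with NADPH (ENSMUSG00000020250, chr10:82859206-82897724, plus strand, 14 exons). Its level was 189.5 FPKM in Foxf1fl/fl and 189.1 FPKM in αSMACreER;Foxf1-/-. The difference of -0.03 had an interval that included 0 (-0.08 to 0.02), at about 6109 and 7166 reads. Under median-ratio scaling both libraries thus held nearly equal Txnrd1, to within counting error. The difference was 0.17 with equal FPKM sums and -0.14 with the length trend described below removed, both outside that interval. The protein-coding gene Eid3 lies inside Txnrd1 on the same strand and had no value of its own, so its reads could not be set apart.

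Srxn1 encodes sulfiredoxin, which restores peroxiredoxins that have been over-oxidised by peroxide (ENSMUSG00000032802, chr2:152105516-152111376, plus strand, 2 exons). Its level was 45.9 FPKM in Foxf1fl/fl and 47.8 FPKM in αSMACreER;Foxf1-/-. The difference was 0.03 (interval -0.08 to 0.14), so under median-ratio scaling no difference was detectable beyond counting error. It was 0.23 with equal FPKM sums, outside that interval, and -0.02 with the length trend removed, inside it. This was the gene with the densest set of motif matches printed above.

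Gclc and Gclm encode the catalytic and the modifier subunit of glutamate-cysteine ligase, the rate-limiting enzyme of glutathione synthesis. Gclc (ENSMUSG00000032350, chr9:77754535-77794485, plus strand, 16 exons) stood at 17.1 FPKM in Foxf1fl/fl and 21.2 FPKM in αSMACreER;Foxf1-/-. The difference was 0.28 (interval 0.12 to 0.44), or 1.21-fold, which did not reach 1.5-fold and was the highest of the 10. Gclm (ENSMUSG00000028124, chr3:122245557-122269984, plus strand, 8 exons) stood at 32.7 FPKM in Foxf1fl/fl and 31.4 FPKM in αSMACreER;Foxf1-/-. Its difference was -0.08 (interval -0.33 to 0.16), wider because only about 254 and 286 reads were estimated for it. That estimate rests on a 1002-base isoform among 7 annotated transcripts, and a longer isoform would give more reads and a narrower interval. The ratio of Gclc to Gclm within a library, which no scaling alters, was 0.525 (Foxf1fl/fl) and 0.675 (αSMACreER;Foxf1-/-). That is a log2 shift of 0.36 (interval 0.073 to 0.65), which became -0.10 once the length trend described below was removed. Gclm overlaps the antisense transcript Gm17494 (7.58 and 3.52 FPKM), and reads of the pair cannot be told apart without strand.

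Nqo1 encodes the quinone reductase most often used as a readout of NRF2 (ENSMUSG00000003849, chr8:107388225-107403206, minus strand, 6 exons). It stood at 1.10 FPKM in Foxf1fl/fl and 0.788 FPKM in αSMACreER;Foxf1-/-, from about 14 and 12 reads. Its percentile of level was 4.68 and 1.80 among compared genes. The difference of -0.45 had an interval from -1.44 to 0.54, which held both 0 and a fall of 1.5-fold. The upper end lay only just short of a rise of 1.5-fold, and at so few reads the interval is rough. Nqo1 was the only NRF2 target of the 5 near the bottom of the level scale.

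**Figure D2:**
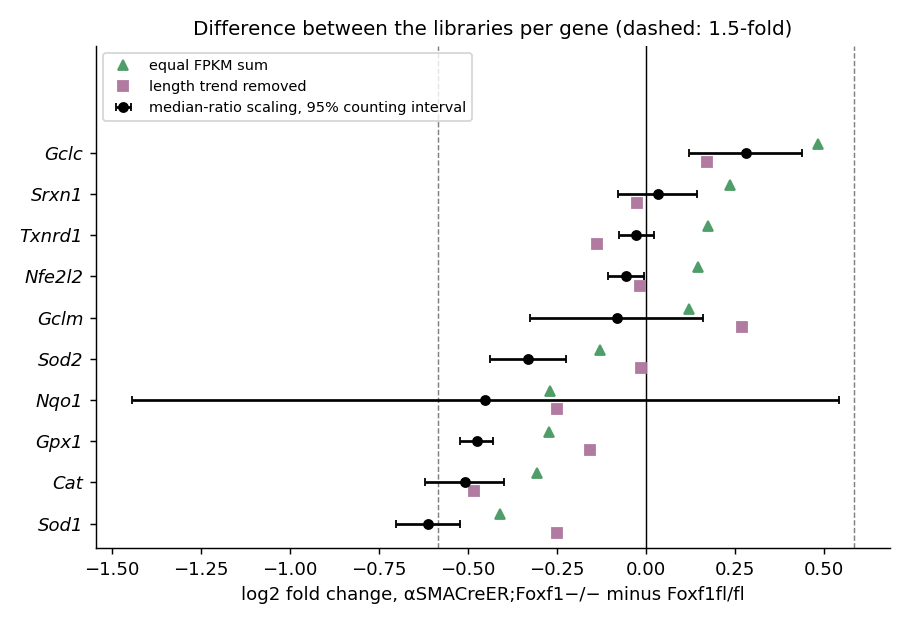
Log2 difference of each of the 10 genes, αSMACreER;Foxf1-/- minus Foxf1fl/fl (horizontal axis), with bars for the approximate 95% counting interval and dashed lines at 1.5-fold. Circles use median-ratio scaling, triangles equal FPKM sums and squares the values with the length trend removed. Sod1 lies past the lower line as a circle and inside it as a triangle or square.

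Sod1 encodes the cytosolic copper and zinc superoxide dismutase (ENSMUSG00000022982, chr16:90220742-90226322, plus strand, 5 exons). Its level was 531 FPKM in Foxf1fl/fl and 353.6 FPKM in αSMACreER;Foxf1-/-, from about 2265 and 1772 reads. It fell 1.53-fold, by 0.61 on the log2 scale (interval -0.70 to -0.52), which only just passed the 1.5-fold threshold. With equal FPKM sums the difference was -0.41, and with the length trend removed it was -0.25, both within 1.5-fold. The 3′ end of Sod1 overlaps antisense Scaf4 (11.88 and 14 FPKM).

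Sod2 encodes the mitochondrial manganese superoxide dismutase (ENSMUSG00000006818, chr17:13007839-13018119, plus strand, 4 exons). Its level was 157 FPKM in Foxf1fl/fl and 127 FPKM in αSMACreER;Foxf1-/-. The difference of -0.33 (interval -0.44 to -0.22) was 1.26-fold and stayed within 1.5-fold. Sod1 exceeded Sod2 by 3.38-fold in Foxf1fl/fl and by 2.78-fold in αSMACreER;Foxf1-/-, a log2 shift of -0.28 (interval -0.42 to -0.14). With the length trend removed that shift was -0.24.

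Cat encodes catalase, the peroxisomal enzyme that splits hydrogen peroxide (ENSMUSG00000027187, chr2:103453849-103485160, minus strand, 13 exons). Its level was 60.6 FPKM in Foxf1fl/fl and 43.3 FPKM in αSMACreER;Foxf1-/-. The difference of -0.51 (interval -0.62 to -0.40), 1.42-fold, was within 1.5-fold. It stayed at -0.48 with the length trend removed and was then the lowest of the 10. Srxn1 relative to Cat went from a ratio of 0.757 to 1.10, a log2 shift of 0.54 (interval 0.38 to 0.70), which was 0.46 with the length trend removed.

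Gpx1 encodes the cytosolic selenoenzyme that reduces hydrogen peroxide with glutathione (ENSMUSG00000063856, chr9:108339080-108340338, plus strand, 2 exons). Its level was 955 FPKM in Foxf1fl/fl and 699 FPKM in αSMACreER;Foxf1-/-, percentiles 99.1 and 98.9 of all compared genes. The difference of -0.48 (interval -0.52 to -0.43), 1.39-fold, was within 1.5-fold. It rested on about 8058 and 6932 reads, the most among the 10 in Foxf1fl/fl and fewer than Txnrd1 had in αSMACreER;Foxf1-/-. The ratio of Gpx1 to Cat was 15.8 (Foxf1fl/fl) and 16.1 (αSMACreER;Foxf1-/-), with a log2 shift of 0.03 whose interval included 0 (-0.09 to 0.15). With the length trend removed that shift was 0.33.

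The log2 difference moved with transcript length across all genes (Spearman's rho 0.44 over 12692 genes of these same libraries). Of 20 groups of equal size by length, the second shortest had a median of -0.36 and the longest a median of 0.48. The main transcripts of Sod1 (641 bases), Gclm (1002 bases), Gpx1 (1072 bases) and Sod2 (1138 bases) are short, and those of Gclc (3423 bases) and Txnrd1 (3531 bases) are long. Gclm and Sod2 have 7 and 8 annotated transcripts. Their length groups, and the values that rest on them, depend on the isoform chosen. Set against the median of its own length group, Sod2 was at -0.01, Gpx1 at -0.16, Sod1 at -0.25 and Cat at -0.48. Gclm was at 0.27 and Gclc at 0.17, while Nfe2l2, Srxn1, Txnrd1 and Nqo1 were at -0.02, -0.02, -0.14 and -0.25. The sign thus turned for Gclm and Srxn1. The median over the 10 genes was -0.08 on this footing, and 0 of them were past 1.5-fold, against 10.9% lower and 10.7% higher among all genes. The part of length in these differences was not tested, and 1 library per genotype cannot separate it from genotype.

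**Figure D3:**
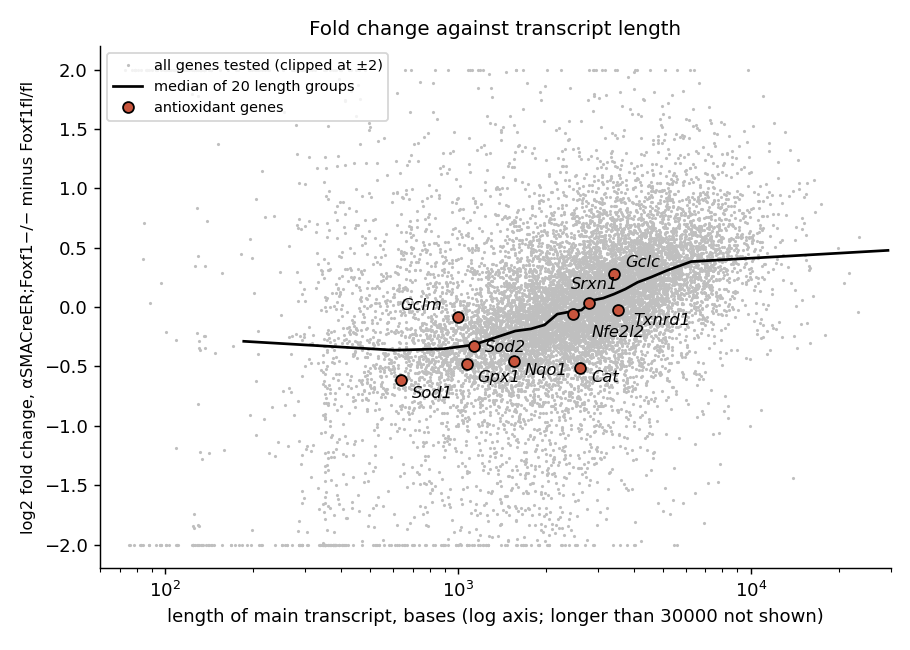
Log2 difference (vertical axis, clipped at 2 in either direction) against main transcript length in bases (horizontal log axis) for all compared genes in grey, with the median of 20 length groups as a line and the antioxidant genes as circles. Sod2 lies on the line, Sod1, Gpx1 and Cat lie below it, and Gclm and Gclc lie above it.

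Scaling moved these values together. Under equal FPKM sums the median was 0.21 over all genes and -0.0048 over the 10, and Nfe2l2, Gclm and Txnrd1 took values of 0.15, 0.12 and 0.17 where they were slightly below 0 before. Gclc was then at 0.48, Srxn1 at 0.23, Sod2 at -0.13, Gpx1 at -0.27 and Cat at -0.31.

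None of the measured regulators of NRF2 passed 1.5-fold. Of the 14 genes listed as NRF2 regulators and partners, 13 reached a mean of 1 FPKM. Of these, 0 rose and 0 fell, against 12.9% and 13.2% of all genes. Their median was -0.14. Keap1, the repressor, stood at 11.1 FPKM in Foxf1fl/fl and 9.51 FPKM in αSMACreER;Foxf1-/-. Bach1, a repressor that competes for the same DNA elements, stood at 67.5 and 77.9 FPKM in the same order. Nfe2l2 therefore exceeded Keap1 by 23.6-fold and 27.0-fold (log2 shift 0.19, interval -0.02 to 0.40) and Bach1 by 3.89-fold and 3.30-fold (log2 shift -0.24, interval -0.32 to -0.16). With the length trend removed, those shifts were 0.38 and 0.18, so the sign for Bach1 turned. Sqstm1, which encodes the autophagy adaptor that binds KEAP1, was high at 1857 and 1570 FPKM (-0.27). The small MAF genes Maff (158.7 and 118.3 FPKM, -0.45) and Mafk (88.8 and 82.3 FPKM, -0.14) were likewise within 1.5-fold.

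Other NRF2 targets leaned lower than the members. Of 47 listed, 44 reached a mean of 1 FPKM, and of these 18 fell by at least 1.5-fold and 0 rose, with a median of -0.49 (13.2% of all genes fell and 12.9% rose). The 18 were Gsta1, Gsta3, Gsta4, Gstm1, Gstm2, Gstm3, Gstm4, Gstp1, Mgst1, Ephx1, Cbr1, Cbr3, Akr1c13, Me1, Abcc2, Ces1g, Htatip2 and Pir, of which Abcc2 (-0.65) had a counting interval that included 0 (-1.83 to 0.53). That interval and the length group of Abcc2 rest on a 607-base isoform, and a longer isoform would give a narrower interval. The glutathione transferases, which join glutathione to electrophiles, thus gave 9 of the 18 names when microsomal Mgst1 is counted with them. Gsta1 went from 16.1 to 3.32 FPKM and fell by 2.27 on the log2 scale. Gsta3 went from 74.0 to 23.6 FPKM and fell by 1.67. These genes have near-identical family members, so the share of reads given to each is uncertain. The ferritin genes Fth1 (13908 and 10390 FPKM, -0.45) and Ftl1 (7262 and 5225 FPKM, -0.50), which store iron, stayed within 1.5-fold. So did Hmox1, the heme-degrading oxygenase, at 933 and 650.5 FPKM (-0.55). The count of lower genes was 11 with the length trend removed and 10 with equal FPKM sums, and the median was -0.29 with the length trend removed. Several of the lower genes are abundant in hepatocytes, whose 10 markers fell as given above (Alb from 2292 to 912 FPKM, Ttr from 322 to 86.8 FPKM, Apoa1 from 261 to 84.2 FPKM). Their part in the result was not tested.

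The lists that follow share genes with the other NRF2 targets (among them Gsr, Slc7a11, Prdx1, Txn1, Taldo1 and Tkt). Their counts and medians are therefore not independent of that list. Genes of glutathione synthesis and recycling were mixed. Of 12 that reached a mean of 1 FPKM (16 measured of 17 listed), 1 rose and 3 fell, with a median of -0.12. Among all genes 12.9% rose and 13.2% fell. Anpep, an aminopeptidase that cleaves glutathione-derived dipeptides, went from 46.2 to 72.1 FPKM (0.62). Hagh and Glo1, which clear methylglyoxal with glutathione as cofactor, fell from 49.8 to 27.5 FPKM (-0.88) and from 23.4 to 13.9 FPKM (-0.77). The remaining faller was Gss, glutathione synthetase, which carries out the step after Gclc and Gclm, at 14.4 and 9.69 FPKM (-0.59). Gss was named after its values were seen. The cystine transporter chain Slc3a2 (318.4 and 288.4 FPKM, -0.17) was within 1.5-fold. All 4 calls ended once the length trend was removed, with Anpep at 0.46, Hagh at -0.56, Glo1 at -0.42 and Gss at -0.44, and with equal FPKM sums Glo1 was at -0.57.

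Among the remaining superoxide dismutase, catalase and helper genes, 2 of 9 fell and 0 rose (13.2% and 12.9% of all genes), with a median of -0.29. The fallers were the metallothioneins Mt1 (1788 to 1095 FPKM, -0.73) and Mt2 (1551 to 961.5 FPKM, -0.71), which bind zinc and copper. Atox1, the copper chaperone, stood at 414.4 and 281.7 FPKM (-0.58), just inside 1.5-fold. Ccs, which loads copper into SOD1, stood at 25.7 and 18.1 FPKM (-0.53). Sod1 exceeded Ccs by 20.6-fold in Foxf1fl/fl and 19.5-fold in αSMACreER;Foxf1-/-, a log2 shift of -0.09 (interval -0.38 to 0.21). Mt1 and Mt2 were within 1.5-fold with the length trend removed (-0.37 and -0.35) and with equal FPKM sums (-0.53 and -0.51).

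Of the other glutathione peroxidases and peroxiredoxins, 0 of 10 rose or fell (26.1% of all genes did). Even so, 9 of the 10 were below 0 (49.6% of all genes were) and the median was -0.40. Prdx5 stood at 1207 and 866 FPKM (-0.50), Prdx1 at 798 and 622 FPKM (-0.39) and Gpx4, which reduces lipid peroxides, at 573 and 432.5 FPKM (-0.43). The ratio of Gpx1 to Gpx4 was 1.67 (Foxf1fl/fl) and 1.62 (αSMACreER;Foxf1-/-), a log2 shift of -0.04 with an interval that included 0 (-0.12 to 0.03). With the length trend removed the median of the 10 was -0.17.

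In the thioredoxin and glutaredoxin system 2 of 17 genes rose and 2 fell, with a median of -0.25. Both counts were near the shares of all genes (12.9% rose and 13.2% fell). The risers were the methionine sulfoxide reductases Msrb2 (1.74 to 3.30 FPKM, 0.87) and Msrb3 (5.11 to 8.46 FPKM, 0.69). A further enzyme of that kind, Msra, fell from 17.6 to 8.69 FPKM (-1.04), as did the mitochondrial glutaredoxin Glrx5 from 38.8 to 25.6 FPKM (-0.63). Msrb1, at 247.8 and 186.9 FPKM (-0.43), was within 1.5-fold. Once the length trend was removed, Msrb3 (0.54) and Glrx5 (-0.27) no longer passed and the list's median was -0.03, and with equal FPKM sums Glrx5 was at -0.42. The thioredoxins Txn1 (602 and 438.6 FPKM, -0.48) and Txn2 (125.2 and 85.4 FPKM, -0.58), the partners of the reductases, were within 1.5-fold as well. Txnrd1 relative to Txn1 went from 0.315 to 0.431, a log2 shift of 0.46 (interval 0.38 to 0.53) that was 0.03 with the length trend removed.

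Gpx1 and Txnrd1 both need selenocysteine. Of 9 genes of selenoprotein synthesis, 1 rose and 1 fell (12.9% and 13.2% of all genes), with a median of -0.33. Sepsecs, the selenocysteine synthase, went from 1.02 to 3.34 FPKM (1.601), and Sephs2, which makes selenophosphate, from 33.3 to 21.9 FPKM (-0.63). The fall of Sephs2 was within 1.5-fold with equal FPKM sums (-0.43) and with the length trend removed (-0.57). Trnau1ap, a factor bound to the selenocysteine tRNA, stood at 24.2 and 16.9 FPKM (-0.54). Selenop, the secreted selenium carrier, stood at 858 and 972.5 FPKM (0.16).

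Of 16 genes that supply NADPH, 0 rose and 1 fell (12.9% and 13.2% of all genes), with a median of -0.23. The faller was Me1, malic enzyme and an NRF2 target, from 3.44 to 2.09 FPKM (-0.72), which was within 1.5-fold with equal FPKM sums (-0.53) and with a pseudocount of 1 (-0.54). The pentose phosphate genes Taldo1 (358.7 and 291.2 FPKM, -0.33), Tkt (144.3 and 131.4 FPKM, -0.16) and Pgls (106 and 75.1 FPKM, -0.52) were within 1.5-fold.

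On the side of oxidant production, 1 of 12 genes that reached a mean of 1 FPKM rose and 2 fell (19 measured of 20 listed). Among all genes 12.9% rose and 13.2% fell. The median of the 12 was -0.09. Cyp2e1, the hepatocyte enzyme that activates CCl4 and a hepatocyte marker itself, fell from 94.3 to 26.9 FPKM (-1.83). Maob, a mitochondrial amine oxidase, fell from 4.82 to 2.89 FPKM (-0.74), and was at -0.55 with equal FPKM sums, within 1.5-fold. Noxo1, an organiser of NADPH oxidase, went from 0.625 to 1.52 FPKM (1.14), with a counting interval from 0.31 to 1.962, and 0.62 with a pseudocount of 1. Cybb, the catalytic subunit of the phagocyte NADPH oxidase, stood at 164.1 and 234.7 FPKM (0.49), and Ncf4, a cytosolic subunit of the same enzyme, at 192.5 and 138.3 FPKM (-0.50). With the length trend removed these were at 0.24 and -0.25, and with equal FPKM sums Cybb passed 1.5-fold at 0.69. Rac1, the small GTPase of the complex, stood at 256.1 and 238.1 FPKM (-0.13).

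Over all genes, 12.9% rose and 13.2% fell by at least 1.5-fold (26.1% in either direction), while 49.6% were below 0 and 50.4% above. These shares are the background for each marker count in this paragraph. Of the 11 macrophage markers, 1 passed 1.5-fold, while 9 were below 0 and 2 above. Their median was -0.34, and -0.15 with the length trend removed. Clec4f fell (1117 to 753 FPKM, -0.59), Adgre1 stood at 162 and 165 FPKM (0.00082) and Marco at 1168 and 929 FPKM (-0.36). Clec4f was within 1.5-fold with equal FPKM sums (-0.39) and with the length trend removed (-0.55). Of 8 stellate cell and myofibroblast markers that reached a mean of 1 FPKM, 6 were above 0, and 2 rose and 0 fell past 1.5-fold. Their median was 0.37, and 0.13 with the length trend removed. A single marker not named here gave 70.2 and 102.8 FPKM of the list's sum. Des rose from 1.70 to 3.29 FPKM (0.89) and Pdgfrb stood at 1.03 and 1.43 FPKM (0.42). Acta2, the gene whose promoter drives the Cre, stood at 7.77 and 5.65 FPKM (-0.48). The 8 sinusoidal endothelial markers summed to 935 and 993 FPKM with 0 past 1.5-fold, Pecam1 at 93.3 and 96.6 FPKM, Stab2 at 64.0 and 85.9 FPKM and Lyve1 at 66.1 and 77.3 FPKM. Of the neutrophil markers, S100a8 fell from 625 to 256 FPKM and S100a9 from 1258 to 503.6 FPKM. The 5 cholangiocyte markers summed to 553 and 655 FPKM with 0 past 1.5-fold. A single marker not named here gave 495 and 606 FPKM of that sum. Krt19 stood at 39.7 and 29.5 FPKM (-0.45), Krt7 at 4.91 and 6.91 FPKM (0.46) and Epcam at 8.38 and 5.65 FPKM (-0.58). Of 5 lymphocyte markers that reached a mean of 1 FPKM, 1 fell (Cd3g, named after its values were seen), and the list summed to 95.5 and 88.6 FPKM, with Cd79a at 24.6 and 24.0 FPKM, Ms4a1 at 2.76 and 3.99 FPKM and Cd3e at 8.02 and 9.88 FPKM. Of 4 erythroid markers that reached it 0 passed 1.5-fold, and the list summed to 150.2 and 156.1 FPKM, with Hba-a1 at 43.0 and 37.5 FPKM, Hba-a2 at 23.9 and 25.9 FPKM and Hbb-bs at 71.5 and 82.9 FPKM. The part of any of these cell types in the values of the 10 genes was not tested.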

How the data were processed

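RNA-seq was analysed from 2 pooled libraries, 1 per genotype. The authors plated liver cell suspensions for 2 hours, kept the adherent cells and made TruSeq libraries of single-end 75-base reads. They aligned reads with TopHat to mm10 and quantified genes with Cufflinks. The deposited values are FPKM per gene. The versions of TopHat and Cufflinks and the handling of strand were not given in the sources used here.

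Here, the entry of a repeated symbol with the higher mean FPKM stood for the gene, and 3 entries with a status other than OK were left out. FPKM were scaled by the median ratio over genes of at least 1 FPKM in both libraries and compared as log2(FPKM + 0.1), for genes with a mean of at least 1 FPKM, with 1.5-fold as threshold. The pseudocount understates differences of low genes. A total of 36490 entries (95.2%) carried a GENCODE M21 symbol, and transcript length was that of the main isoform inside the deposited locus. Read numbers, and from them the counting intervals (Poisson error), rest on low FPKM values being whole reads. Only 45.9% and 48.6% of the low values fell within 0.1 of a whole number, so they are rough. The fragment length was taken as 200 bases (SD 80).

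The members, 9 gene lists and 8 marker lists were chosen with earlier results of these data known. Named genes were all members, and of each list the 3 with the highest level and up to 2 that rose and 2 that fell most past 1.5-fold, with the first 3 of each marker list. Of the genes this rule names, 1 is not reported here. Python 3.11.15, with pandas 2.3.3, numpy 2.4.6, matplotlib 3.10.9 (figures) and scipy 1.17.1 was used. Only the scaling and fold formulas were tested on simulated data, which held counting error and no length trend. Dpep1 and Cyba were not analysed here.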

Additional observations from a re-analysis of the deposited data

How the results depend on the processing

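No paired analysis was possible because the comparison had only 1 library on either side, and leaving out a library was not possible either. Over all genes, the 1662 higher and 1697 lower became 2815 and 1125 with equal FPKM sums, 3978 and 3304 without the filter on low values, 692 and 953 at a mean of at least 5 FPKM, and 581 and 800 at a 2-fold threshold. The 1 lower member became 0 with equal FPKM sums, with the length trend removed and at 2-fold. Of the other NRF2 targets, 0 higher became 1 with a pseudocount of 0.01 and 3 with equal FPKM sums. The 18 lower became 10 with equal FPKM sums, 11 with the length trend removed and 6 at 2-fold. They became 20 of 47 without the filter on low values and 14 of 38 at a mean of at least 5 FPKM. Values as deposited and upper-quartile scaling changed none of the counts of members or other NRF2 targets past 1.5-fold, and a pseudocount of 1 changed only the 18, to 16. No named gene past 1.5-fold changed direction. Of 74 named genes, equal FPKM sums moved 47 beyond their counting interval (8 members) and removal of the length trend moved 49 (5 members). The length alternative was chosen with earlier results known. Among the members depth limits Nqo1 most, at about 14 and 12 reads. All intervals leave out the spread between mice, which pooled libraries do not show.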
